A study of Mus musculus with 12 samples.

Results

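Sorted CD11b+ cells, a sort that takes microglia, and sorted GFP+ cells were compared within normal mouse cerebellum. There were 3 libraries of CD11b+ cells and 3 libraries of GFP+ cells, which are 6 of the 12 libraries of the series. All 54547 deposited genes entered, and the 29835 that passed a filter on low values were tested. The control mice carried a GFP allele and Msi1-CreER, in which the promoter of Musashi-1, a gene of neural progenitors, drives a Cre that tamoxifen-type ligands switch on, on a strain mix named 129;C57BL/6. The other 6 libraries, GFP+ and CD11b+ cells from tumors of Msi1-CreER;RasV12 mice of the same strain mix, entered only the estimate of the spread between libraries and a test of whether the difference between the sorts was the same in tumors, where it differed for 4.4% of genes (1312 genes, and 578 to 2227 with 1 CD11b+ control library left out). The labels used here do not give ages, sort gates, cell numbers, the inducing treatment or whether replicates came from separate animals. The p-values below therefore reflect how far single libraries of a group lay apart, some of which can be technical.

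Microglia are the resident macrophages of the brain. They depend on signaling through the receptor Csf1r, are held in a resting state by TGF-beta, fractalkine and CD200 from the tissue around them, and carry a set of surface receptors for nucleotides, antibodies, complement and microbial products. CD11b, the integrin subunit encoded by Itgam, is also on border macrophages, monocytes and neutrophils, so a CD11b+ sort can hold all of these. The cerebellum is built from granule cells, Purkinje cells and inhibitory interneurons together with oligodendrocytes, astrocytes and the Bergmann glia that span the cortex.

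Promoter windows are shown for 3 myeloid genes called higher in CD11b+ cells and 1 myelin gene called lower, because transcription factors of both lineages are known to bind short sequence words there. PU.1, the protein of Spi1, binds the letters GAGGAAG in macrophages, and MYRF, the myelin regulatory factor, binds CTGGCAC in oligodendrocytes. Each sequence runs 5′ to 3′ on the strand of the gene from 250 bases before to 30 after the RefSeq start (GRCm38.p6), with the matched letters or their reverse complement in capitals. The windows are chr7:128062390-128062669 on the plus strand for Itgam, chr3:59210853-59211132 on the minus strand for P2ry13, chr3:95526536-95526815 on the plus strand for Ctss and chr11:100574689-100574968 on the plus strand for Cnp.
Itgam: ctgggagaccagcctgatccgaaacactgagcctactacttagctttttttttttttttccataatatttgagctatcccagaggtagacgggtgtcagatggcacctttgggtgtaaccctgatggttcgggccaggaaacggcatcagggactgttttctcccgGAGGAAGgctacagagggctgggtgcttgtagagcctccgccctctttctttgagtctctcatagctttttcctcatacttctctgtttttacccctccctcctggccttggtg
P2ry13: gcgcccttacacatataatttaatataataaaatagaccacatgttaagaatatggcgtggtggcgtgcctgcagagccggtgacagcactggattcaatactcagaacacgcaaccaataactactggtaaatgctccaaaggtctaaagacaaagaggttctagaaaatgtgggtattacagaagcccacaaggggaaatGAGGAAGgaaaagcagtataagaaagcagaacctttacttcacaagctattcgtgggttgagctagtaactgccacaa
Ctss: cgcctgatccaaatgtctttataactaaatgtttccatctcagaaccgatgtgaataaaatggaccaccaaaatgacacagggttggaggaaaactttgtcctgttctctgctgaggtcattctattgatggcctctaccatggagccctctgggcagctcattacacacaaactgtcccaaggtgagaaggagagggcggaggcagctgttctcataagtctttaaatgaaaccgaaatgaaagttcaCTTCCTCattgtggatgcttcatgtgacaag
Cnp: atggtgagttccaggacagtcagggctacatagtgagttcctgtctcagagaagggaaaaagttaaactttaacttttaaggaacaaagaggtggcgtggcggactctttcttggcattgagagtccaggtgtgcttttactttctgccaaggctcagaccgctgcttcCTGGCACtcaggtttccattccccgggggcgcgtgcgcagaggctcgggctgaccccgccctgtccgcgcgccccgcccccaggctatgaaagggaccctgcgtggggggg

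The match began 84 bases before the start in Itgam, 48 before in P2ry13, 1 before on the opposite strand in Ctss and 81 before in Cnp. Itgam held another match on the opposite strand, 32 bases after the start and beyond the stretch shown. Over windows of 300 bases searched on both strands, GAGGAAG was present for 3 of 11 homeostatic microglia genes and 4 of 11 pan-myeloid genes with a window, beside 15.4% of all 27025 genes. It was also present for 2 of 8 pan-neuronal, 1 of 10 mature oligodendrocyte and 1 of 9 astrocyte genes. CTGGCAC was present for 3 of 10 mature oligodendrocyte genes, beside 5.73% of all genes. It was also present for 1 of 8 pan-neuronal and 1 of 11 pan-myeloid genes, and for no homeostatic microglia or astrocyte gene. Only windows that hold a match were shown, so the matches in the windows shown are not a result. With so few genes per list these shares are descriptions only, and a match is not evidence of binding.

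CD11b+ libraries carried microglial and myeloid genes at high levels, and GFP+ libraries carried genes of oligodendrocytes, astrocytes, Bergmann glia, Purkinje cells and granule cells. The GFP+ libraries also carried genes of red cells, choroid plexus and endothelium, so that sort was not neural only. Of 29835 genes tested, 5765 (19.3%) were called higher and 2061 (6.91%) lower in CD11b+ than in GFP+ cells, at an adjusted p under 0.05 by limma. Every CD11b+ library exceeded every GFP+ library for 32.9% of tested genes, and the reverse held for 12.7%. These shares are the background for every count of list members below. In bulk libraries such as these, fewer cells of a type and less RNA per cell cannot be told apart. The distribution of all tested genes was not centered on 0, with a median log2 fold change of 1.80. Quantile normalization, which forces the libraries to one distribution, brought it to -0.02 with 1818 genes (6.09%) higher and 2286 (7.66%) lower. A log2 fold change of 1.80 is therefore the middle of all tested genes on the deposited scale, but the middle depended on level. The median was 2.575 among the 16947 genes with a mean under 100 normalized counts, and 0.623 among the 9622 from 100 to 1000. Among genes with a mean of at least 1000 normalized counts the median was -0.31, with 727 higher and 894 lower of 3266.

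**Figure D1:**
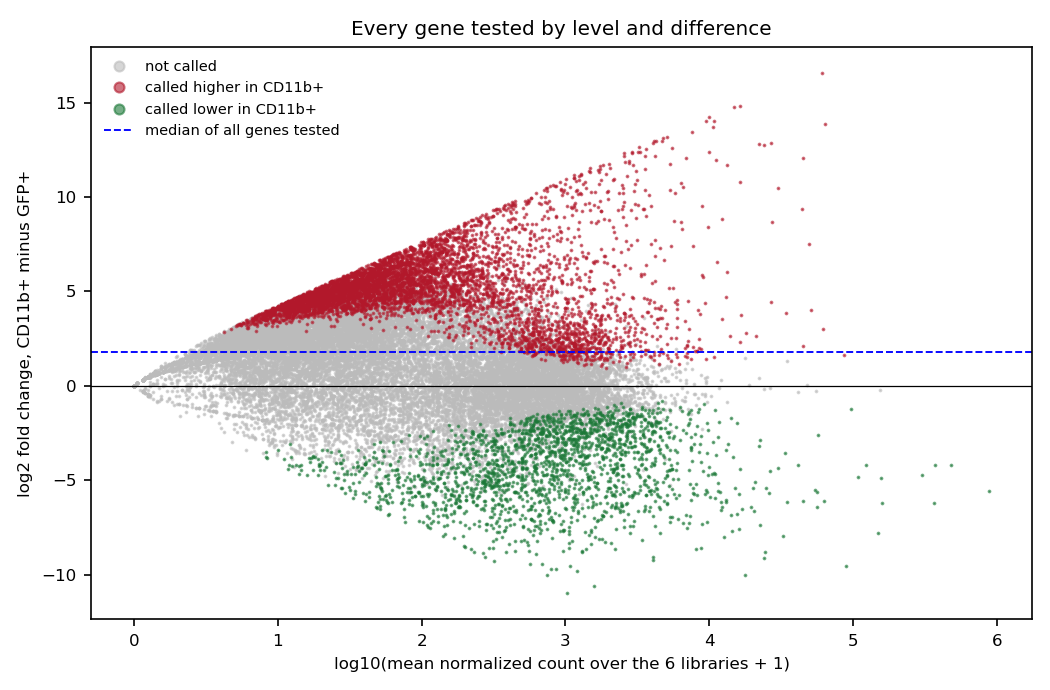
Log2 fold change of CD11b+ against GFP+ (vertical axis) for each of the 29835 tested genes by the log10 of its mean normalized count over the 6 control libraries (horizontal axis), with genes called higher in red, called lower in green and not called in grey. The dashed line is the median of all tested genes at 1.80, and genes of low level spread upward while the most abundant genes lie around or under 0.

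The libraries differed in depth and make-up beside their sort. Reads recovered from the deposited values ran from 7883870 to 34601205 in CD11b+ and from 18519240 to 32624399 in GFP+ libraries, and genes with at least 1 read from 31394 to 34945 and from 17669 to 21101. Mitochondrially encoded genes took 0.63 to 2.54% of reads in CD11b+ and 20.1 to 30.4% in GFP+ libraries. Of 1833 sensory receptor genes, which neither sort is known to use, 52.9 to 63.2% had a read in CD11b+ and 9.17 to 19.6% in GFP+ libraries, and 309 of 1044 tested were called higher. Control CD11b+ 2, the shallowest control library, stood apart. Across genes it correlated with the other control CD11b+ libraries at 0.657 and 0.674, against 0.887 between those. Sensory receptor genes took 1.91% of its nuclear reads against 0.178 and 0.186% in those. Without Control CD11b+ 2, 3360 genes (11.3%) were higher and 1800 (6.03%) lower. The part of these differences in the calls was not tested.

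**Figure D2:**
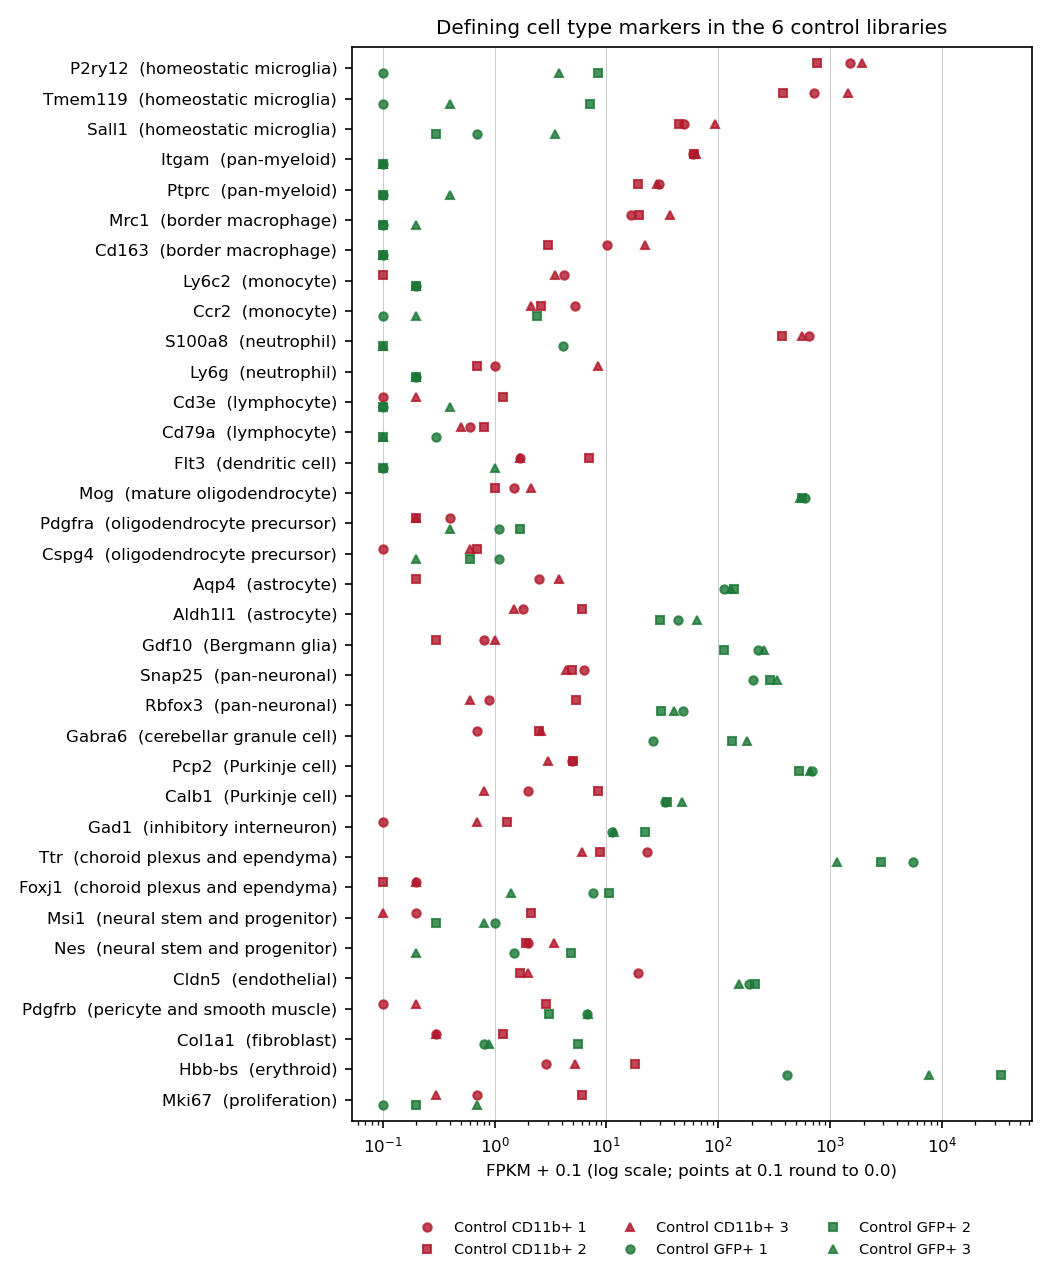
FPKM plus 0.1 on a log axis for defining markers of the cell type lists, 1 point per library, CD11b+ in red and GFP+ in green, with shapes for replicates. P2ry12 and Itgam lie far to the right in CD11b+ libraries, Mog, Aqp4, Gdf10, Snap25 and Pcp2 in GFP+ libraries, and markers such as Msi1, Nes, Cspg4 and Cd3e overlap.

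Itgam, the gene of the sorted antigen (chromosome 7, 128062640 to 128118491, GRCm38), had 5010, 5085 and 5256 normalized counts (read counts divided by a factor for each library's depth) in CD11b+ libraries 1 to 3 and no read in any GFP+ library. The 3 CD11b+ values lay within a narrow band, and the fold was at least 6725 against a floor of 3 reads over the GFP+ group. Its log2 fold change was 12.32 ± 0.86 (SE, n = 3 libraries a group, adjusted p = 2.79e-06 in limma). In the values that follow, the 3 CD11b+ libraries come first and the 3 GFP+ libraries after "against", each in the order of their replicate numbers. Intervals and floors given here cover counting error only. Ptprc, the pan-leukocyte antigen CD45, had 9032, 5868 and 8632 against 1.8, 3.2 and 94.6. All 14 pan-myeloid genes were called higher, with a median log2 fold change of 10.63 and the same count without Control CD11b+ 2.

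All 15 tested homeostatic microglia genes were called higher as well, with a median of 10.82, and all 15 remained so without Control CD11b+ 2, after quantile normalization and with edgeR. Csf1r (chromosome 18, 61100598 to 61132149), the receptor for the survival factors of microglia, had the largest log2 fold change among the genes named here: 137908, 34007 and 194559 against no read, at least 198700-fold (log2 fold change 16.57 ± 0.87, adjusted p = 3.54e-07). Every CD11b+ library was far above every GFP+ library, and library 2 was the lowest of the 3. P2ry12 (chromosome 3, 59216272 to 59262871), the ADP receptor that steers microglial processes, had 64660, 32410 and 81751 against 0, 354.5 and 157.7 (log2 fold change 10.50 ± 1.58, adjusted p = 0.000629). Tmem119, a membrane protein of microglia, had 27774, 14555 and 55901 against 0, 268.7 and 13.2. Sall1, the transcription factor of microglial identity, had 4320, 3892 and 8236 against 48.7, 20.9 and 301.1 (adjusted p = 0.00129). The 3 microglia-defining markers thus separated the sorts without overlap, while some reads of each were present in at least 2 GFP+ libraries. Trem2 was listed at 0 in all 6 control libraries under both gene IDs that carry the symbol, and was not tested.

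Among the 12 genes higher in CD11b+ cells with the largest change were Csf1r, Fcgr3, Gpr34, Ly86, Fcrls, P2ry13, Ctss, Cd53, Ptgs1, Il10ra and Ngp. Fcgr3, an activating receptor for IgG (chromosome 1, 171051174 to 171064935), had 53587, 14871 and 30037 against no read, at least 45300-fold (log2 fold change 14.82 ± 0.70, adjusted p = 2.82e-07). Gpr34, a receptor for lysophosphatidylserine, was at least 45350-fold higher, and P2ry13, another ADP receptor, at least 35240-fold. Fcrls, a scavenger receptor related to Fc receptors, had 13885, 10493 and 32671 against no read. Ly86, which pairs with a relative of the Toll-like receptors, had 27941, 13045 and 18886 against no read. Ctss, the lysosomal protease cathepsin S, had 211529, 56205 and 113488 against 4.8, 0 and 67.1. Cd53, a tetraspanin of leukocytes, was 43910-fold higher (95% exact binomial interval 12150 to 362600, from 2 reads in the GFP+ group). Ptgs1, the prostaglandin-forming cyclooxygenase 1, had 21149, 6530 and 17793 against 0, 0.8 and 0. Il10ra, a subunit of the interleukin 10 receptor, was at least 16190-fold higher. These 12 genes had from no read to 67.1 normalized counts in the GFP+ libraries.

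By FPKM (read fragments scaled to transcript length and library depth, a level per length), the most abundant transcripts of CD11b+ libraries were Cst3, Ctss, C1qb and Apoe, at a median FPKM of 6356, 5012, 4600 and 4376. Cst3 encodes the protease inhibitor cystatin C. Apoe and Cst3 ranked 5th and 18th in GFP+ libraries too. Apoe, the lipid carrier that both astrocytes and microglia make, had 318777, 33744 and 155994 normalized counts against 168778, 118141 and 135993. The ranges overlapped and the gene was not called (log2 fold change -0.23 ± 0.57, adjusted p = 0.768), although quantile normalization called it higher (adjusted p = 0.0369).

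Of 13 transcription factors of the myeloid lineage 12 were called higher. Spi1, which encodes PU.1, had 6175, 1645 and 4161 against no read, at least 5701-fold. Irf8, its partner in microglial development, had 7844, 4034 and 9644 against 0, 0 and 12.2 (log2 fold change 11.48 ± 0.92, adjusted p = 7.18e-06). Runx1, a factor of blood cell development, had 3635, 2232 and 2904 against 2.4, 0 and 11.2. Every CD11b+ library exceeded every GFP+ library for these 3 factors. Bhlhe41 was the member not called, at 885 to 1345 against 146.8 to 466.8 (adjusted p = 0.0564).

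**Figure D3:**
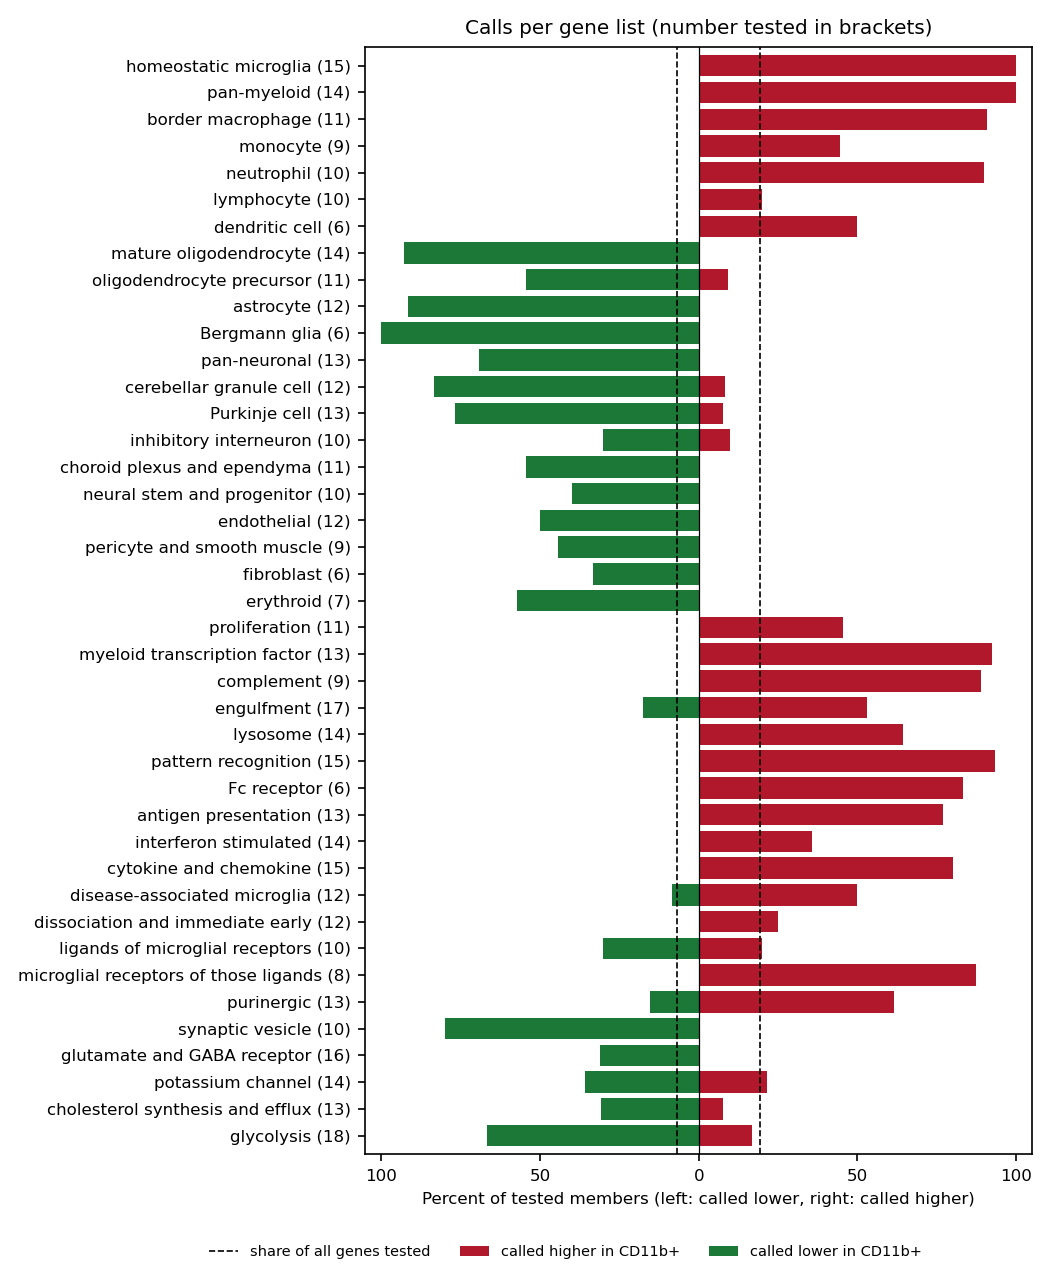
Percent of the tested members of each of the 41 gene lists that were called higher (right, red) or lower (left, green) in CD11b+ cells. Dashed lines mark the shares among all tested genes, 19.3% and 6.91%, and myeloid lists reach far past the right line while glial and neuronal lists reach far past the left one.

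Receptors and effectors of innate immunity were high in CD11b+ cells. Of 15 pattern recognition genes 14 were called higher, with a median log2 fold change of 7.70. Cd14, the co-receptor for bacterial lipopolysaccharide, had 10124, 5362 and 9120 against no read, at least 11520-fold (adjusted p = 3.54e-07). Tlr7, which senses single-stranded RNA, had 12266, 4293 and 7711, and Tlr2, which senses bacterial lipopeptides, 3797, 604.7 and 2681, both against no read. Tlr3, a sensor of double-stranded RNA, was the member not called, at 583.8 to 1586 against 0 to 831.2, with overlapping groups. Of 6 Fc receptor genes 5 were higher, and the neonatal receptor Fcgrt was not called (adjusted p = 0.436).

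Complement genes were called higher for 8 of 9. C1qb, a chain of the C1q recognition molecule, had 141009, 43323 and 83435 against 34.4, 175.6 and 0 (log2 fold change 12.08 ± 1.36, adjusted p = 8.1e-05). C1qa had 65120, 22461 and 45878 against 0, 190.1 and 0. The receptors for the cleavage fragments, C3ar1 and C5ar1, had 17913, 3458 and 11804 and 9573, 926.5 and 6203, against at most 2.0 in any GFP+ library. C3 itself was low, at 43.4 to 234.9 against 0 to 42.2, and its call (adjusted p = 0.0491) was lost after quantile normalization (0.476), without Control CD11b+ 2 (0.0636) and with edgeR (0.237). C3 and C4b stood at FPKM values of 0.3 to 2.7 in CD11b+ libraries.

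Lysosome genes were called higher for 9 of 14 and antigen presentation genes for 10 of 13. With edgeR the count was 6 in each of these lists. Ctsd, the protease cathepsin D, had 155810, 21059 and 116085 against 5982, 3404 and 4302 (log2 fold change 4.03 ± 0.52, adjusted p = 0.00023). Grn, progranulin, had 77657, 13676 and 64524 against 2229, 3277 and 935. Control CD11b+ 2 was the lowest of its group for both, and still above all GFP+ libraries. Lamp1, a major lysosomal membrane protein, was not called and overlapped (adjusted p = 0.809). B2m, the light chain of MHC class I, had 45726, 24699 and 24283 against 4706, 4551 and 3888 (log2 fold change 2.79 ± 0.34, adjusted p = 0.000142). Cd74, the invariant chain of MHC class II, had 6757, 767.9 and 2818 against 0, 0 and 21.4. Cd86, a costimulatory ligand for T cells, had 8292, 2073 and 7462 against 0, 2.4 and 0.

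Cytokine and chemokine genes were called higher for 12 of 15. Ccl12, a ligand of the receptor Ccr2, had 8845, 851.7 and 939 against no read, at least 4305-fold, with Control CD11b+ 1 far above the other libraries. Osm, oncostatin M, had 1452, 559.8 and 544.8 against no read, and Ccl6 had 5661, 3470 and 5904 against 0.6, 0 and 40.7. Ccl2, the monocyte attractant, had 607.5, 263.4 and 148 against 0, 0 and 1.0, a 1190-fold ratio (interval 213.3 to 47060). Il10, Il18 and Cxcl10 were not called, and Il18 overlapped at 457.6 to 489.9 against 380.7 to 1001. Of 14 interferon stimulated genes 5 were called higher and none after quantile normalization. Mx1 had 130.9, 40.4 and 172.8 against 1.2, 10.4 and 0, a call that edgeR did not make either (adjusted p = 0.0982), and Isg15 23.5, 26.9 and 68.2 against 51.1, 219.7 and 123.1, which was not called. Of 12 dissociation and immediate early genes, which can be induced while cells are prepared, 3 were called higher (Atf3, Junb and Zfp36), near the background share. The calls of Atf3 (adjusted p = 0.0606) and Junb (0.127) were lost after quantile normalization, that of Junb also with edgeR (0.0563). Fos, the prototype immediate early gene, overlapped at 432.6 to 1365 against 393.8 to 1103 (adjusted p = 0.929).

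Genes described for disease-associated microglia were mixed, with 6 higher and 1 lower of 12. Lpl, lipoprotein lipase, had 5712, 869.6 and 3049 against 0, 118.7 and 1.0, and Igf1 had 857.6, 916 and 547.9 against 51.7, 12.8 and 68.2. Spp1, osteopontin, was not called, at 237 to 1795 against 144.4 to 502.4 (adjusted p = 0.248). The lower member was Fabp5, a fatty acid binding protein, at 36.9 to 208.5 against 928.7 to 1378 (adjusted p = 0.0111). Engulfment genes were also mixed, with 9 higher and 3 lower of 17, and 5 higher and 3 lower with edgeR. Mertk, a receptor for apoptotic cells, had 9068, 9089 and 14540 against 1711, 599.9 and 648 (log2 fold change 3.60 ± 0.45, adjusted p = 0.000164). Its relative Tyro3 was lower, at 1.6, 116.8 and 17.8 against 1406, 1579 and 872.9, as were the bridging protein Mfge8 and the glial engulfment receptor Megf10. The call of Mfge8 was lost without Control CD11b+ 2 (adjusted p = 0.104). Axl, the other relative, overlapped between the sorts (adjusted p = 0.192).

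Ligands and receptors that act between neural cells and microglia were examined next. Of 8 tested receptors 7 were called higher in CD11b+ cells. Of 10 ligands 2 were higher (Tgfb1 and Pros1), near the background share, 3 were lower and 5 not called. The call of Pros1 was lost after quantile normalization (adjusted p = 0.137) and with edgeR (0.0641). Il34, a ligand of Csf1r made by neurons, had 3.9, 1.5 and 0.4 in CD11b+ and 38, 684.1 and 138.4 in GFP+ libraries (log2 fold change -5.91 ± 1.09, adjusted p = 0.00233). Every GFP+ value was above every CD11b+ value, although the GFP+ libraries ranged widely. Csf1, the other ligand of Csf1r, overlapped at 435.6 to 1218 against 218.7 to 597.5 (adjusted p = 0.329). Cd200, a restraining ligand of neurons, had 95.6, 202.1 and 32.1 against 640.8, 873.4 and 1189 (adjusted p = 0.00455), and its receptor Cd200r1 had 569.1, 700.5 and 612.1 against no read, at least 799.8-fold. App, a ligand of several microglial receptors, was lower at 3366 to 4572 against 9314 to 11155 (adjusted p = 0.00866), a call lost after quantile normalization (0.214) and with edgeR (0.0935).

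Cx3cr1, the fractalkine receptor, had 61160, 22455 and 76987 against 15.4, 14.4 and 0 (log2 fold change 12.87 ± 1.32, adjusted p = 4.49e-05). Its ligand Cx3cl1 had 10.2, 464 and 38.2 against 497.7, 514.9 and 110.9 and was not called (adjusted p = 0.26), with Control CD11b+ 2 inside the GFP+ range. Sirpa, the receptor of the do-not-eat-me signal, had 38727, 15044 and 57091 against 5785, 4823 and 4718 (log2 fold change 2.66 ± 0.43, adjusted p = 0.001), and its ligand Cd47 overlapped at 2209 to 4723 against 3153 to 6681 (adjusted p = 0.361). Both TGF-beta receptors were higher in CD11b+ cells. Tgfbr1 had 23237, 22010 and 34719 against 20.8, 0 and 21.4 (log2 fold change 11.69 ± 0.93), and Tgfbr2 had 8843, 1908 and 12243 against 49.9, 54.5 and 867.8. The ligand Tgfb1 was itself higher in CD11b+ cells, at 1238, 437.1 and 1587 against 19, 121.9 and 59 (adjusted p = 0.00226). Tgfb2 was not called, at 16.1 to 104.8 against 80.4 to 299.1 (adjusted p = 0.133).

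**Figure D4:**
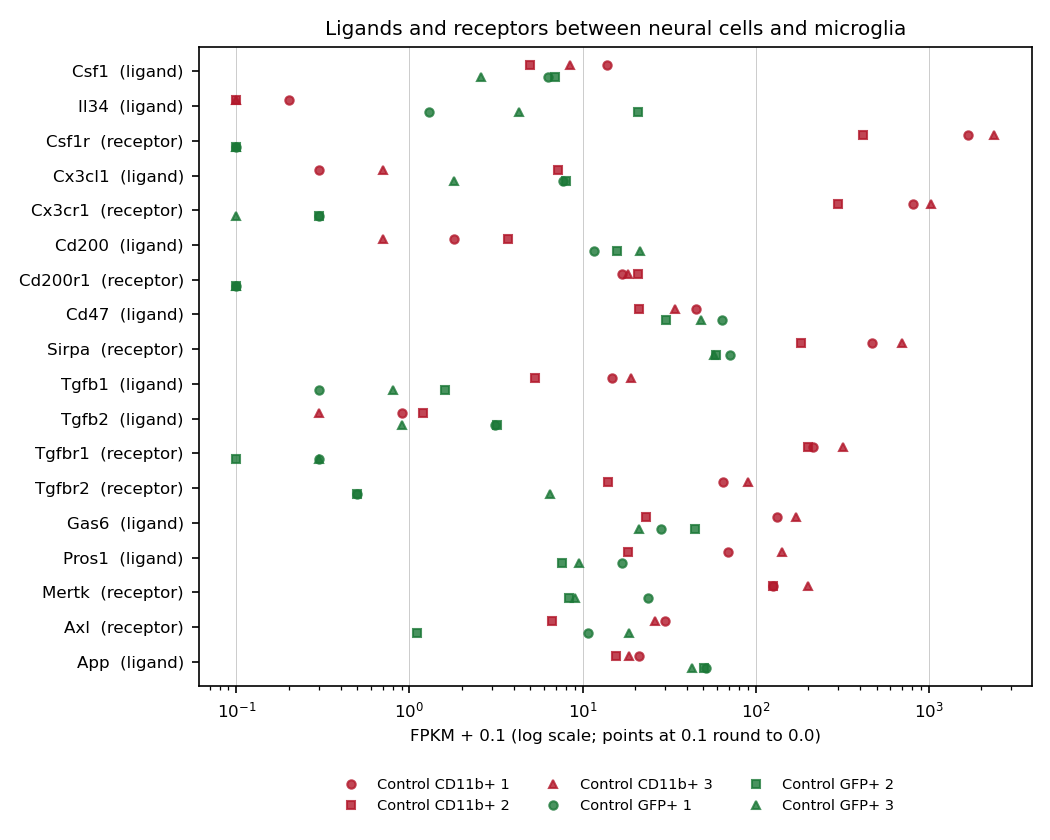
FPKM plus 0.1 on a log axis for ligands and receptors between neural cells and microglia, 1 point per library, CD11b+ in red and GFP+ in green. Csf1r, Cx3cr1, Cd200r1 and Tgfbr1 are separated by more than an order of magnitude, Il34 and Cd200 lie higher in GFP+ libraries, and Csf1, Cd47 and Axl overlap.

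Of nucleotide signaling genes, 8 of 13 were called higher and 2 lower, and 5 higher and 1 lower with edgeR. P2ry6, the UDP receptor of microglial phagocytosis, had 9098, 2916 and 9455 against 0, 1.6 and 0. P2rx7, an ATP-gated channel, had 4209, 1085 and 5807 against 136.6, 131.5 and 37.6 (log2 fold change 5.07 ± 0.73, adjusted p = 0.000472). The lower members were Adora1, an inhibitory adenosine receptor, at 6.3 to 285.9 against 2001 to 2662, and Entpd2, an ectonucleotidase, at 0 to 13.3 against 142.8 to 244.7, a call lost with edgeR (adjusted p = 0.0854). Of 14 potassium channels 3 were called higher, near the background share, and 5 lower. Kcnk6 had 5714, 1834 and 8114 against 0.6, 0 and 0, and Kcna3 72.9, 296.4 and 104.2 against 1.8, 0 and 0. Neither gene had more than 3 reads in the GFP+ group.

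Other myeloid cells were represented in the CD11b+ sort. Of 11 border macrophage genes 10 were called higher. Mrc1, the mannose receptor of perivascular and meningeal macrophages, had 1760, 2048 and 3893 against 0, 0 and 8.1 (log2 fold change 10.18 ± 1.07, adjusted p = 5.23e-05), and Cd163, the hemoglobin scavenger receptor, 921.9, 260.4 and 2008 against 1.8, 0 and 0. The list summed to 183.2, 212.8 and 343.4 FPKM in CD11b+ libraries, beside 12280, 4333 and 16110 for homeostatic microglia. Sums of lists with different genes do not give shares of cells. Of 10 neutrophil genes 9 were called higher. S100a9, a subunit of calprotectin, had 7622, 4643 and 7265 against no read (log2 fold change 12.64 ± 0.97, adjusted p = 5.84e-06), and Ngp, a protein of neutrophil granules, had 12076, 4893 and 11670 against no read. Retnlg and Mmp8 were at least 3512-fold and 2643-fold higher. Ly6g, the defining surface marker, had 14.1, 9.0 and 132.4 against 1.8, 0.8 and 1.0 and was not called (adjusted p = 0.0678). The neutrophil list summed to 2767, 1426 and 2538 FPKM in CD11b+ and to 0.1 to 7.1 in GFP+ libraries.

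Monocyte and lymphoid genes were less clear. Of 9 monocyte genes 4 were called higher, 3 without Control CD11b+ 2 and 1 after quantile normalization. Ly6c2, a marker of inflammatory monocytes, had 188.1, 0 and 157.6 against 2.4, 4.8 and 4.1, and Ccr2 574.6, 282.9 and 223.1 against 0, 264.7 and 6.1. Neither was called (adjusted p = 0.367 and 0.061). Chil3, a lectin of activated macrophages and myeloid precursors, had 11962, 428.1 and 3201 against 327.2, 0 and 0, a call lost with edgeR (adjusted p = 0.0979). Of 10 lymphocyte genes 2 were called higher, near the background share, namely Cd79b and Cd4. The call of Cd4 was lost after quantile normalization (adjusted p = 0.264) and with edgeR (0.0677). Cd79b had 925.8, 595.7 and 884.8 against no read, whereas its partner in the B cell receptor, Cd79a, had 12.5, 16.5 and 10.9 against 5.3, 0 and 0. The T cell marker Cd3e had 0, 77.8 and 7.8 against 0, 0 and 20.3. Of 6 dendritic cell genes 3 were called, and Flt3 lost its call with edgeR (adjusted p = 0.288) and without Control CD11b+ 2 (0.0597), where it had 711 against 169.3 and 169.7 in the other CD11b+ libraries.

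**Figure D5:**
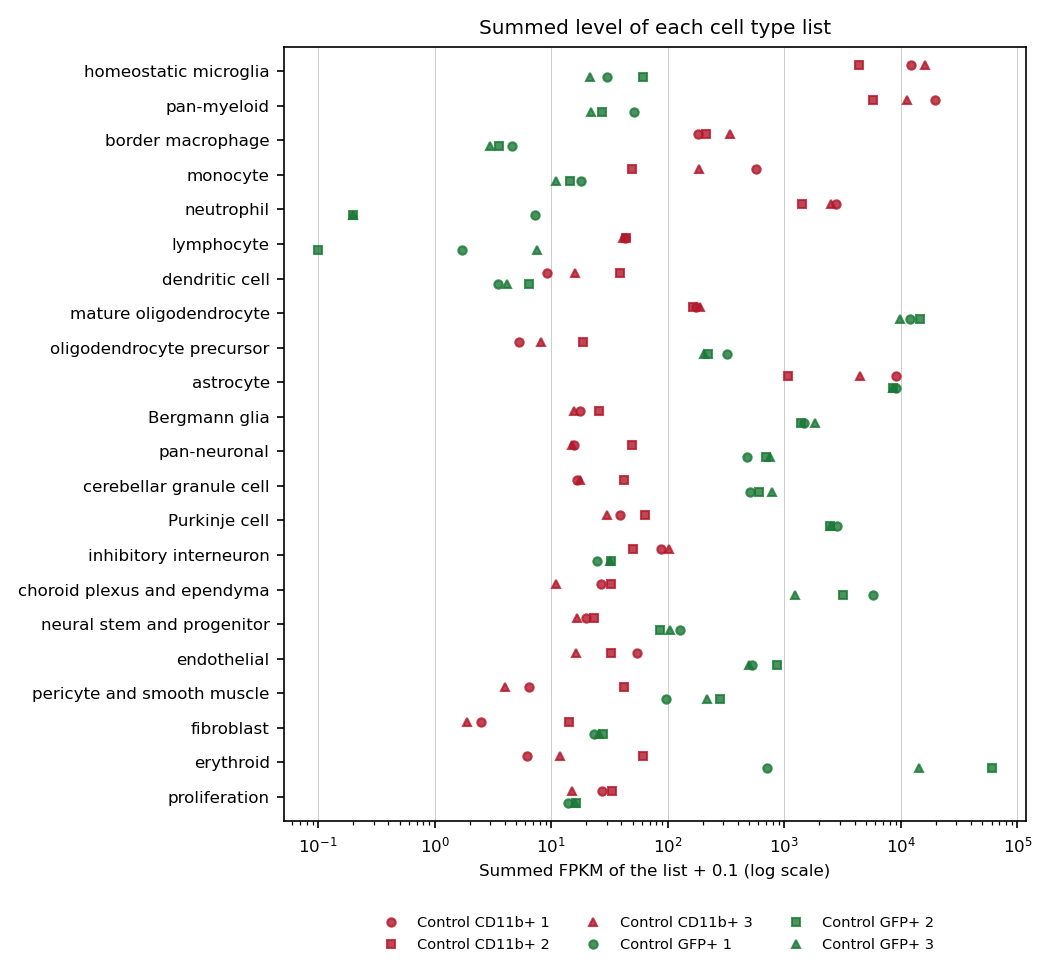
Summed FPKM plus 0.1 of each cell type list on a log axis, 1 point per library, CD11b+ in red and GFP+ in green. In CD11b+ libraries the pan-myeloid and homeostatic microglia lists are highest among those without Apoe and the neutrophil list lies between 1426 and 2767, while in GFP+ libraries the mature oligodendrocyte list lies between 9831 and 14490 and the erythroid list spans 707.7 to 60610.

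Of 14 mature oligodendrocyte genes 13 were called lower in CD11b+ cells, with a median log2 fold change of -6.22. Mog, a myelin surface glycoprotein (chromosome 17, 37010743 to 37023398), had 40.8, 25.4 and 56 in CD11b+ and 16959, 15960 and 15234 in GFP+ libraries (log2 fold change -8.66 ± 1.08, adjusted p = 0.00017). Cnp, an enzyme of myelin, had 1082, 649.6 and 1945 against 55915, 41231 and 47028, and Mobp 1436, 2401 and 1389 against 93354, 188946 and 90268. The groups did not overlap for any of these 3 genes. Trf, transferrin, was the member not called, at 913 to 2907 against 3052 to 3990. The list summed to 176.1, 164.4 and 189.8 FPKM in CD11b+ libraries (Mbp alone 65.6, 76.7 and 55.7) and to 12060, 14490 and 9831 in GFP+ libraries.

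Of 11 oligodendrocyte precursor genes 6 were called lower in CD11b+ cells and 1 higher, and the list summed to 5.2, 18.5 and 8.0 FPKM in CD11b+ against 323.4, 221.9 and 203.5 in GFP+ libraries. The receptor and the proteoglycan that define precursors were low in both sorts. Pdgfra had 54.1, 23.9 and 16.5 against 169.3, 271.9 and 49.8 and Cspg4, the NG2 proteoglycan, 6.3, 124.2 and 108.1 against 195.4, 94.6 and 18.3, and neither was called (adjusted p = 0.0843 and 0.727). The 6 lower members were Olig1, Olig2, Sox10, C1ql1, Lhfpl3 and Enpp6, of which Lhfpl3 was not called with edgeR (adjusted p = 0.0583). Olig1, a factor of the lineage, stood at 3.1, 107.8 and 71.6 against 7644, 4426 and 4680 (adjusted p = 0.000605), and Olig2, its relative, at 1.6, 0 and 28.2 against 2240, 721 and 416.1. C1ql1 had no read in CD11b+ libraries against 74.8, 154 and 121.1. Vcan, a matrix proteoglycan, was higher in CD11b+ cells at 463.7 to 1426 against 8.0 to 217.4, a call lost without Control CD11b+ 2 (adjusted p = 0.0705) and with edgeR (0.134).

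Astrocyte genes were called lower for 11 of 12 and Bergmann glia genes for all 6. Aldoc, the aldolase of astrocytes and of zebrin-positive Purkinje cells (chromosome 11, 78322968 to 78327781), had 1013, 1615 and 1225 against 93729, 126886 and 110030 (log2 fold change -6.44 ± 0.36, adjusted p = 6.26e-07). S100b, a calcium binding protein of glia, had 271.2, 796.3 and 389.9 against 28033, 51722 and 36298, and Gfap, the intermediate filament of astrocytes, 228.1, 832.2 and 452.8 against 11135, 11590 and 7345. Aqp4, the water channel of astrocyte endfeet, had 201.5, 9.0 and 311.3 against 9600, 11748 and 11151 (adjusted p = 0.017), a call lost without Control CD11b+ 2 (0.0916), and Aldh1l1 124.6, 453.5 and 106.4 against 3301, 2261 and 4909, a call lost after quantile normalization (0.0838). Without Control CD11b+ 2, 8 of the 12 stayed called. Without Apoe the astrocyte list summed to 68.0, 124.5 and 91.8 FPKM in CD11b+ and 4353, 5302 and 4724 in GFP+ libraries. Gdf10, a growth factor of Bergmann glia (chromosome 14, 33923587 to 33937983), had 65.1, 15 and 74.2 against 19673, 9836 and 22555 (log2 fold change -8.57 ± 1.003, adjusted p = 0.000106). Hopx had 260.3, 221.5 and 177.6 against 11847, 15062 and 17497, and Fabp7, a fatty acid binding protein of the Bergmann glia list, 48.6, 0 and 46.5 against 6312, 8436 and 9443.

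Of 13 pan-neuronal genes 9 were called lower in CD11b+ cells. Snap25, part of the machinery of vesicle fusion (chromosome 2, 136713453 to 136782428), had 700, 541.8 and 490.6 against 23451, 32717 and 38016 (log2 fold change -5.75 ± 0.46, adjusted p = 6.89e-06). Rbfox3, the antigen NeuN, had 79.2, 511.9 and 52.5 against 4662, 2995 and 3916 (adjusted p = 0.00532). Control CD11b+ 2 was the highest of its group for Rbfox3 and still below every GFP+ library. The Purkinje list had 10 of 13 lower. Pcp2, a Purkinje cell signaling protein (chromosome 8, 3623371 to 3625545), had 147.4, 149.7 and 89 against 21020, 16159 and 20270 (log2 fold change -7.24 ± 1.135, adjusted p = 0.000835). Pvalb, the calcium buffer parvalbumin of Purkinje cells and interneurons, had 151.3, 74.8 and 70.3 against 14565, 16754 and 11910, and Slc1a6, the Purkinje cell glutamate transporter, 0, 6.0 and 6.5 against 582.6, 205.3 and 409. The list summed to 29.8 to 64 FPKM in CD11b+ and 2480 to 2808 in GFP+ libraries.

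Of 12 granule cell genes 10 were called lower. Gabra6, the GABA-A receptor subunit of mature granule cells, had 25.9, 98.8 and 105.1 against 1073, 5541 and 7572 (log2 fold change -5.76 ± 1.01, adjusted p = 0.00168), with Control GFP+ 1 well under the other GFP+ libraries. Slc17a7, a vesicular glutamate transporter, had 57.2, 83.8 and 86 against 5445, 3047 and 4178, and Zic1, a factor of the granule lineage, 5.5, 88.3 and 19.1 against 2096, 1807 and 2761. The granule cell list summed to 511.2, 601.1 and 785.8 FPKM in GFP+ libraries, under the 2480 to 2808 of the Purkinje list in each of them. The lists hold different genes, so their sums do not compare numbers of cells. Atoh1, the factor of granule cell precursors, was instead higher in CD11b+ libraries at 258.7, 925 and 156.3 against 20.8, 0 and 35.6 (adjusted p = 0.0103), a call lost without Control CD11b+ 2 (0.0501) and with edgeR (0.0947). Foxp2 of the Purkinje list had 2079 in Control CD11b+ 2, 218.7 and 279.2 in the other CD11b+ and 14.8 to 262.5 in GFP+ libraries, and its call was lost without that library (adjusted p = 0.128), after quantile normalization (0.0684) and with edgeR (0.167).

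Of 10 interneuron genes 3 were called lower, and 1 with edgeR. Among the 3 was Gad1, the enzyme that makes GABA, at 3.1, 154.2 and 79.9 against 1418, 2832 and 1460 (adjusted p = 0.0347). Prkcd, a protein kinase C that is also made by myeloid cells, was higher in CD11b+ cells at 8062, 3363 and 9304 against 271.4, 323.2 and 870.8 (adjusted p = 0.00183). Without Prkcd the interneuron list summed to 0.7, 13.5 and 2.0 FPKM in CD11b+ and 21.9, 29.2 and 22.3 in GFP+ libraries. Of 10 synaptic vesicle genes 8 were lower, such as Vamp2 at 1509, 556.8 and 2133 against 11000, 18408 and 10989 and Cplx2 at 94.9, 29.9 and 34.3 against 5628, 2560 and 4866. Of 16 glutamate and GABA receptor subunits 5 were lower and none higher. Gria1, an AMPA receptor subunit that Bergmann glia also carry, had 185, 154.2 and 267 against 8726, 8329 and 8032 (log2 fold change -5.40 ± 0.52, adjusted p = 2.77e-05), and Gria4 47.8, 276.9 and 183.6 against 5264, 5691 and 8378. Grin2b had 2887 in Control CD11b+ 2 and 225.8 to 389.6 in the other 5 libraries, and was not called (adjusted p = 0.592).

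Among the 12 genes lower in CD11b+ cells with the largest change were Tmem125, Kcnk1, Hba-a2, Cend1, Npy, Lrrn1, Nrbp2, Hbb-bs, Ralyl, Gfra4 and Fabp7. Tmem125, a membrane protein gene, had no read in CD11b+ libraries and 1679, 2659 and 1850 in GFP+ libraries, at least 2880-fold lower (log2 fold change -10.98 ± 1.33, adjusted p = 0.000134). Kcnk1, a background potassium channel, had 0, 7.5 and 0 against 3196, 2989 and 3256. Npy, neuropeptide Y, had 0, 0 and 5.2 against 2243, 778.7 and 2153, and Cend1, a gene of neuronal differentiation, 17.2, 0 and 0 against 1642, 3088 and 2468. Gfra4, a receptor subunit of the GDNF family, was at least 879.4-fold lower. Genes of this group are known from more than one source, and include genes of neurons (Npy, Cend1), Bergmann glia (Fabp7) and red cells (Hba-a2, Hbb-bs).

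The transcript of the GFP allele was not analysed here. The gene whose promoter drives the Cre, Msi1 (chromosome 5, 115429599 to 115455698), was low in both sorts: 13.3, 191.6 and 1.7 in CD11b+ and 84.9, 20 and 71.2 in GFP+ libraries. The groups overlapped and the gene was not called (adjusted p = 0.608). Of 10 tested neural stem and progenitor genes 4 were called lower in CD11b+ cells and none higher, with 2 lower after quantile normalization. Sox2, a factor of progenitors and astroglia, had 0, 74.8 and 13.5 against 1156, 328 and 754.9 (adjusted p = 0.0228), and Vim, vimentin, 809, 294.9 and 386.8 against 4743, 3685 and 4470, a call lost after quantile normalization (0.0585). Nes, nestin, overlapped at 196.1 to 349.5 against 9.2 to 500.4. Proliferation genes did not mark the GFP+ sort: 5 of 11 were called higher in CD11b+ cells, 4 without Control CD11b+ 2, 1 after quantile normalization and 0 with edgeR. Mki67 had 105.8, 1004 and 34.7 against 0, 11.2 and 104.8 and was not called (adjusted p = 0.0684), and Cdk1 had 267.3, 422.1 and 193.6 against 0, 31.3 and 0 (adjusted p = 0.00273, and 0.114 with edgeR).

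Genes of other tissues of the cerebellum were found in the GFP+ libraries. Of 11 choroid plexus and ependyma genes 6 were called lower in CD11b+ cells. Ttr, the thyroxine carrier of choroid plexus (chromosome 18, 20665280 to 20674321), had 112212, 58460 and 23688 in GFP+ and 468, 176.6 and 122.4 in CD11b+ libraries (log2 fold change -7.95 ± 1.74, adjusted p = 0.00606). Foxj1, the factor of motile cilia, had 2.4, 0 and 6.1 in CD11b+ against 326.1, 455.5 and 54.9 in GFP+ libraries. Tmem212 had 4.7, 25.4 and 2.6 against 949.1, 1342 and 251.3. Among the GFP+ libraries both were lowest in Control GFP+ 3, as was Ttr. Of 12 endothelial genes 6 were called lower in CD11b+ cells, among them Cldn5, the tight junction protein of the blood-brain barrier, at 444.5, 37.4 and 44.3 against 4411, 5033 and 3603 (adjusted p = 0.00315). Of 9 pericyte and smooth muscle genes 4 were lower, and 2 with edgeR. Pdgfrb had 2.4, 251.5 and 8.2 against 600.4, 270.3 and 621.6, a call lost with edgeR (adjusted p = 0.108), and Acta2, smooth muscle actin, 71.3, 356.2 and 43.4 against 448.4, 5381 and 2401. Of 6 fibroblast genes 2 were lower, Col1a2 and Dcn, and Col1a1 was not called (adjusted p = 0.14).

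Of 7 erythroid genes 4 were called lower in CD11b+ cells, all of them globins. After quantile normalization and with edgeR, 6 of the 7 were called lower. Hbb-bs, an adult beta globin, had 5317, 435672 and 98626 in GFP+ libraries 1 to 3 and 36.1, 229 and 64.7 in CD11b+ libraries (log2 fold change -9.53 ± 1.29, adjusted p = 0.0003). Globin copies are nearly identical, so reads may be split between Hba-a1 and Hba-a2 and between Hbb-bs and Hbb-bt. Globins took 0.0459, 3.21 and 0.938% of reads in GFP+ libraries 1 to 3. The erythroid genes Alas2 and Slc4a1 followed the same order of libraries and were not called (adjusted p = 0.16 and 0.104). Alas2 had 1.2, 24509 and 7676 in GFP+ libraries.

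Of 18 glycolysis genes 12 were called lower in CD11b+ cells and 3 higher, the latter near the background share. The counts were 3 lower and 1 higher after quantile normalization and 7 lower and 2 higher without Control CD11b+ 2. With edgeR they were 5 lower and 1 higher. Aldoa, the main muscle-type aldolase, had 4090, 2055 and 3102 against 16186, 22488 and 21127 (log2 fold change -2.73 ± 0.37, adjusted p = 0.00029). The isoforms parted: Hk1, the hexokinase of brain, was lower at 71.8 to 469.3 against 820.2 to 2120 (adjusted p = 0.0152), while Hk2 was higher at 1800, 2610 and 2612 against 580.8, 89 and 282.8 (adjusted p = 0.00496). The lactate exporter Slc16a3 had 587.1, 38.9 and 703.3 against no read, and its relative Slc16a1 was lower at 622.7 to 1197 against 2740 to 3804. The calls of Hk1, Slc16a1 and Slc16a3 were lost after quantile normalization (adjusted p = 0.0554, 0.114 and 0.0745). Without Control CD11b+ 2 the calls of Hk1 (adjusted p = 0.0543) and Slc16a1 (0.0935) were lost too, and with edgeR those of Hk1 (0.07), Hk2 (0.0556) and Slc16a1 (0.0577). Of 13 cholesterol genes 4 of synthesis were lower, among them Fdft1, Hmgcs1 and Sqle, and the efflux transporter Abca1 was higher. The call of Sqle was lost after quantile normalization (adjusted p = 0.0579). Fdft1, squalene synthase, had 159.1, 97.3 and 109.8 against 1462, 1327 and 1545 (log2 fold change -3.58 ± 0.58, adjusted p = 0.000973). Abca1 had 8929, 2346 and 9802 against 1636, 530.9 and 951.2 (log2 fold change 2.65 ± 0.60, adjusted p = 0.00727), a call lost with edgeR (adjusted p = 0.0582).

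Mitochondrially encoded genes were called lower in CD11b+ cells for 30 of 31, with a median log2 fold change of -4.48, and for all 31 after quantile normalization. Nuclear genes of the respiratory chain stood among the most abundant GFP+ transcripts, led by Cox8a and Cox6a1. Cox8a had 162.6, 93.2 and 69.5 FPKM in CD11b+ and 4598, 4056 and 4425 in GFP+ libraries. Cox6a1 had 148.7, 80.8 and 82.1 against 3472, 3359 and 3554. The other leading GFP+ transcripts by median FPKM were Hbb-bs, Fth1, Mbp, Apoe and Mt1. Fth1, ferritin heavy chain, had 7438, 7330 and 5058 FPKM in GFP+ and 2242, 596.7 and 920.8 in CD11b+ libraries.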

How the data were processed

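RNA of FACS-sorted GFP+ and CD11b+ cells was made into libraries with SMARTer and Nextera XT kits, per the labels' protocols, which do not mark strand, so reads of overlapping or antisense partners are counted together where they overlap. The submitters' processing notes list the build GRCm38.p6 and the tools DESeq2 1.20.0, HISAT2 2.1.0, Subread 1.6.2 with featureCounts, and bcl2fastq 2.17.1.14, without their roles. The authors deposited normalized counts, a signal in which each library's read counts are divided by 1 factor, and FPKM, for 54547 genes in 12 libraries. Every deposited value was, within 0.05, a whole multiple of 1 read for at least 99.997% of values in the 6 control libraries, and the reads recovered in this way gave the depths. No replicates agreed within sampling noise.

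Genes with at least 10 normalized counts in at least 3 of 12 libraries were tested on log2(normalized count + 1) with limma 3.58.1 in R 4.3.3 (trended variance, 4 group means, Benjamini-Hochberg adjusted p under 0.05 over 29835 genes). Fold changes on this scale understate the change of low genes. The fit was tested on simulated data, in which many of the changes put in were not called. A gene that was not called may therefore still differ. Alternatives were the FPKM table, other scalings, pseudocounts, filters, variance settings and samples, the replicate number as a block, and edgeR 4.0.16 and DESeq2 1.42.0 on recovered reads of the 6 control libraries. Symbols were those of the deposited values, and gene types and positions came from GENCODE M21 (98.46% of IDs matched).

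The comparison and the 41 gene lists were chosen with earlier results of these data known, so lists are described by counts and medians, without a list test. Named genes were the 12 with the largest change in each direction (higher group averaging 100 or more, groups not overlapping, no predicted or sensory receptor name), the called list members of smallest adjusted p (up to 3 a list), and the defining markers. Of 167 such genes, 152 were called, and a few are not reported here. Every other gene named here, among them Apoe, Trem2, Foxp2, Atoh1, Vcan, Fos, C3, Tyro3, Hk1, Grin2b, Cst3, Cox8a and Fth1, were chosen after their values were seen.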

Additional observations from a re-analysis of the deposited data

Results flagged for a closer look

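The CD11b+ minus GFP+ difference was compared between control cerebellum and RasV12 tumors for each named gene, by the interaction term of the same limma fit. It differed for 1312 of 29835 genes (4.4%), and for 48 of the genes named here, 20 with a negative and 28 with a positive term (tumor minus control difference, log2). Most named genes were chosen by their control difference, which the term subtracts. That choice by itself favors terms opposite in sign to the control difference, so the 48 cannot be set against the 4.4%. Every negative term belonged to a gene higher in control CD11b+ cells, and every positive term to a gene lower there. The count of all genes was 682, 2227 and 578 without Control CD11b+ 1, 2 and 3. For the 48 genes the adjusted p of the interaction in limma lay between 6.76e-05 and 0.048. A negative term means a smaller CD11b+ excess in the tumor comparison and a positive one a smaller GFP+ excess, or a difference of the opposite sign. By the point estimates of the fit, which were not tested in the tumors alone, the sign was opposite for 25 of the 48 genes. Of these, 20 were lower in CD11b+ cells of control cerebellum and higher in those of tumors (log2 difference in tumors 0.64 to 7.04), namely Acta2, Calb1, Dcn, Gabra6, Gabrd, Hba-a1, Hbb-bs, Hbb-bt, Mobp, Mog, Pdgfrb, Pvalb, Ralyl, Slc1a6, Slco1a4, Stmn2, Syn2, Tmem125, Tmem212 and Vtn. The other 5 were higher in control cerebellum, with estimated tumor differences of -0.02 for B2m, -1.21 for Ccl2, -0.34 for Ctsd, -0.48 for Tgfb1 and -2.40 for Tgfbr2. The values rest on all 12 libraries, and tumor and control differ in tissue, genotype and cell content at once, which cannot be told apart. Tumor CD11b+ libraries 1 and 2 were shallow, with 3642570 and 2951629 reads. Mitochondrially encoded genes took 13.3 to 17.7% of reads in tumor CD11b+ and 1.53 to 2.62% in tumor GFP+ libraries, reversing the control order. Sensory receptor genes took 2.82 to 3.76% of nuclear reads in tumor CD11b+ libraries. The part of these differences in the interaction terms was not tested. Receptors and markers of microglia and other myeloid cells had interaction terms of -5.34 for Csf1r, -7.7 for Fcgr3, -9.18 for Cd14, -6.18 for Gpr34, -4.53 for Ly86, -8.85 for Itgb2, -8.14 for Tlr7, -6.55 for Cd163, -6.29 for P2ry6, -4.77 for P2rx7 and -6.21 for Kcna3. The other genes with a negative term had interaction terms of -7.99 for Irf8, -8.71 for Runx1, -4.37 for Ctsd, -3.6 for Grn, -2.81 for B2m, -9.05 for Ccl2, -4.66 for Tgfb1, -9.69 for Tgfbr1 and -7.85 for Tgfbr2. Oligodendrocyte genes had interaction terms of 3.49 for Cnp, 7.39 for Mobp, 11.5 for Mog and 11.62 for Tmem125. Genes of astrocytes and of cholesterol synthesis had interaction terms of 4.76 for Aldoc, 4.27 for Gfap, 5.53 for S100b, 4.64 for Gria1 and 2.9 for Hmgcs1. Neuronal genes had interaction terms of 6.39 for Calb1, 8.32 for Gabra6, 7.54 for Gabrd, 8.43 for Pvalb, 5.33 for Slc17a7, 11.76 for Slc1a6, 4.9 for Snap25, 8.55 for Stmn2, 6.13 for Syn2 and 12.53 for Ralyl. Vascular, ciliated and stromal genes had interaction terms of 5.87 for Acta2, 9.35 for Pdgfrb, 11.13 for Vtn, 10.24 for Slco1a4, 9.49 for Dcn and 7.88 for Tmem212. Globin genes had interaction terms of 9.95 for Hba-a1, 10.86 for Hbb-bs and 11.79 for Hbb-bt.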

How the results depend on the processing

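No gene called in one direction was called in the other under any of 21 alternatives, but the counts depended on scale. The 5765 higher calls became 2658 with the FPKM table, 8956 with upper-quartile rescaling, 1818 with quantile normalization, 3578 with a pseudocount of 10, 3264 with predicted and sensory receptor names left out, and 1918 with edgeR on recovered reads. The count tests differed: DESeq2 on the same reads gave 7595 higher and 2618 lower calls (74.4% higher), and edgeR gave 1472 lower. Leaving out 1 library gave 3360 to 4866 higher and 1478 to 1800 lower calls, with 3360 higher without Control CD11b+ 2 and 3744 without Control GFP+ 2. The 2061 lower calls became 3163 with array weights. The share of calls that were higher, 73.7% at first, was 53.6% with FPKM, 86.3% with upper-quartile rescaling, 44.3% with quantile normalization, 62.0% with a pseudocount of 10, 63.1% without predicted and sensory receptor names and 56.6% with edgeR. The median log2 fold change of all tested genes was 2.31 with upper-quartile rescaling. With the replicate number as a block there were 925 higher and 1045 lower calls (47.0% higher), and 28 of 152 named calls were lost. Deviations of same-numbered libraries correlated at 0.038, 0.006 and 0.001, and not every library correlated best with its own number. This cannot decide whether the numbers pair the samples, since different cells of an animal need not share such deviations. The 6 control libraries without Control CD11b+ 2, added after seeing the data, gave 5970 higher and 2578 lower calls. The 1312 genes whose difference was not the same in tumors became 2681 with FPKM, 2446 with upper-quartile rescaling, 2018 with a pseudocount of 10 and 3102 with array weights, and 578 to 2227 with 1 CD11b+ control library left out (682 without replicate 1, 2227 without replicate 2, 578 without replicate 3). Of 82 named genes called higher, 81 stayed called without Control CD11b+ 2, 71 after quantile normalization and 72 with edgeR. Of 70 called lower, these numbers were 69, 68 and 66. The cause of these changes was not tested. Depth limits statements on genes with few reads, among the control libraries most of all in Control CD11b+ 2 with 7883870 reads. Tumor CD11b+ libraries 1 and 2, which enter the spread and the interaction terms, had 3642570 and 2951629 reads.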
